A study of Mus musculus with 14 samples.

Results

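Nduf genes are the nuclear genes of respiratory complex I (NADH:ubiquinone oxidoreductase), and their mRNA was examined here in the superior mesenteric artery (SMA) of mice with and without a targeted Drp1 allele. Members were the rows of the read count table whose symbol begins with Nduf, 45 of 46095 symbols. By symbol, 38 of these rows are subunits (Ndufa, Ndufb, Ndufc, Ndufs and Ndufv) and 7 are assembly factors (Ndufaf1 to Ndufaf7). A filter on low counts left 44 members among 17693 genes tested, 37 subunits and all 7 assembly factors. Ndufa7 was the member that did not pass, with 0 to 10 reads per mouse. No row carried the symbol Ndufb1 or Ndufaf8. RefSeq gives Ndufaf8 as another name of 1810043H04Rik, a row that is not a member and that had 4.04 to 22.7 CPM (read counts scaled to a common library size with TMM, the library scaling of edgeR).

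All 14 mice were C57BL/6 and 8 weeks old, and bulk RNA of the SMA was sequenced. WT mice were Drp1 +/+. The mice called KO in the study carried 1 targeted allele, written Drp1 flox/+ in the labels and Drp1 +/- in the study's text, and no Cre is named in the labels. Under normal conditions there were 3 WT and 4 KO mice, and after ischemia, given as 2 h in the labels but as a longer period in the study's text, there were 3 WT and 4 KO mice. The question put by these groups is how loss of Drp1, the GTPase that divides mitochondria, alters the transcripts of the artery before and after ischemia.

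Total counts were 25612646 to 40255851 per mouse, so counting error was small beside the spread between mice, a biological coefficient of variation of 0.522. Dnm1l, the gene of Drp1, was at 63.8, 65.7 and 90.9 CPM in the WT mice and at 54.8, 60.8, 57.9 and 62.2 CPM in the KO mice under normal conditions (log2 fold change -0.32 ± 0.16 SE, FDR = 0.974 in edgeR's quasi-likelihood test), and the groups overlapped after ischemia, so mRNA of the whole gene is a weak check of the label. Markers of artery wall were present in all mice but at unlike levels. Acta2 of smooth muscle was at 3357 to 18598 CPM and Pecam1 of endothelium at 299 to 746 CPM. Tagln, also of smooth muscle, was at only 0.675 to 5.78 CPM, and Tek, also of endothelium, at 21.6 to 113 CPM. Markers of brown adipocytes, which are packed with mitochondria, were also present in all mice and differed between them far more, with Ucp1 at 40.2 to 4072 CPM. The mean log2 CPM of striated muscle markers was highest in KO ischemia replicates 4 and 3 and KO normal replicate 4. It was 6.36, 4.28 and 3.28 there, against at most 2.75 in the other mice. Not all of these markers were high. In KO ischemia mice Myh6, Tnnt2, Actn2 and Ckm reached 3529, 636, 334 and 162 CPM. Tnnt3 and Acta1 reached only 3.09 and 1.93 CPM in them. In bulk tissue, fewer cells of a type and less RNA per cell cannot be told apart.

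Complex I takes electrons from NADH, passes them along a chain of iron-sulfur clusters to ubiquinone and pumps protons across the inner mitochondrial membrane. Its peripheral arm reaches into the matrix and carries the NADH and quinone sites, and its membrane arm holds the proton channels. The core subunits are conserved from bacteria, 7 of them nuclear, such as Ndufs1, Ndufs8 and Ndufv1, and 7 encoded by mitochondrial DNA (ND1 to ND6 and ND4L). Accessory subunits surround the core, and assembly factors build the enzyme without staying in it. Ndufa4 keeps its name although its protein is now placed in complex IV, and Ndufa4l2 is a relative of it known as a hypoxia-induced gene of pericytes and smooth muscle.

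The 45 members lay on 16 chromosomes, with at most 6 on any one (GENCODE M21, GRCm38), so they do not form a cluster in the genome. Exon bases were shared with another gene by 19 members, and for 17 of them with a gene on the opposite strand. Ndufaf3 (ENSMUSG00000070283.4, chr9:108565537-108567434, minus strand), for example, shares exon bases with Impdh2. Whether the counting used strand is not given in the sources used here, so reads of such neighbours could not be kept apart.

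The promoters are shown because the members moved together across mice, and whether their letters bear on that movement was not tested. RefSeq (GRCm38.p6) gave windows of 250 bases before to 50 after the start for 39 of the 45 members, 41 windows in all, and they were searched on both strands for short motifs of regulators known for mitochondrial genes. The letters in capitals in the first 4 lines below, which the factor YY1 can bind, were found in 4 of the 41 windows (9.76%) and in 0.633% of all 32851 windows. The palindrome in capitals in the next 3 lines, a site of the nuclear respiratory factor NRF1, was found in 3 (7.32%) and in 0.971% of all windows. The letters TGACGTCA, the cyclic AMP response element, were found in 3 (7.32%) and in 1.79% of all windows. Each run is the gene's own strand from 5′ to 3′, and none of these matches overlapped another motif searched.
Ndufa9, chr6:126849095-126849124, minus strand, YY1 letters: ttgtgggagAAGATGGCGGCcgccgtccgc
Ndufs7, chr10:80249464-80249493, plus strand, YY1 letters: gccgaggccAAGATGGCGGCgctggcgggt
Ndufs6, chr13:73328433-73328462, minus strand, YY1 letters: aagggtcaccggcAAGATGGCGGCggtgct
Ndufs4, chr13:114388045-114388074, minus strand, YY1 letters: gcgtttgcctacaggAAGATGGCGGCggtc
Ndufaf5, chr2:140170652-140170681, plus strand, NRF1 letters: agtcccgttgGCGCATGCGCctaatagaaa
Ndufaf4, chr4:24897960-24897989, plus strand, NRF1 letters: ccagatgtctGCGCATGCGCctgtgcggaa
Ndufa11, chr17:56717692-56717721, plus strand, NRF1 letters: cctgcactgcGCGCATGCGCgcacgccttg
Ndufa10, chr1:92473807-92473836, minus strand, CRE letters: acactcagtggTGACGTCAtggcagcgcgc
Ndufb2, chr6:39592540-39592569, plus strand, CRE letters: gtgcgacgcagTGACGTCAcgggccgggac
Ndufa11, chr17:56717593-56717622, plus strand, CRE letters: tttacctttccTGACGTCAcgggcgtctct

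The YY1 letters began 25 to 36 bases after the start in all 4 genes (Ndufs7 at 25, Ndufa9 at 30, Ndufs6 at 34 and Ndufs4 at 36), and all 4 encode subunits of the peripheral arm. The NRF1 letters lay at 17 after the start in Ndufaf5 and at 60 and 113 before it in Ndufa11 and Ndufaf4. Other letters were no more frequent than elsewhere or widespread. The ERR letters TCAAGGTCA were in 0 of the 41 windows (0.423% of all), the ETS letters CCGGAAGT in 1 (2.44% against 3.89%), the TATA letters TATAAA in 5 (12.2% against 13.6%) and the GC box GGGCGG in 21 (51.2% against 35.7%). The YY1 letters contain an ATG and lay within the transcript, and whether they are coding sequence was not examined. A match is a description of the letters and shows no binding.

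Per kilobase of transcript, subunits stood well above assembly factors. Over the 14 mice, the level of the 37 subunits had a median of 120 CPM per kb (7.25 to 403) and that of the 7 assembly factors a median of 10.7 CPM per kb (4.37 to 15.7). Ndufa4 was the highest at 403 CPM per kb, followed by Ndufb8, an accessory subunit of the membrane arm, at 360. Of the core subunits, Ndufv1, which binds NADH and FMN, was at 144 CPM per kb, and Ndufs1, which carries iron-sulfur clusters, was the lowest at 56.3. Among assembly factors Ndufaf2 was the highest at 15.7 and Ndufaf6 the lowest at 4.37. A few subunits by symbol sat among the assembly factors on this scale, Ndufa4l2 at 14.8, Ndufb4 at 8.42 and Ndufb2 at 7.25 CPM per kb. The length was that of the longest principal transcript in GENCODE M21, 4371 bases for Ndufb2. The place of Ndufb2 rested on that length. Its mean of 31.7 CPM was above that of every assembly factor, of which Ndufaf4 was the highest at 24.3 CPM. Ndufb8 shares exon bases with Gm20538 on the same strand, so its level may hold reads of that gene.

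Members were ordered by mouse rather than by group. WT normal replicate 2 had the highest CPM of the 14 mice for 36 of 37 subunits (18.5% of all genes tested were highest in this mouse), and WT normal replicate 1 had the lowest for 31 (15% of all genes). Both extremes therefore came from the same group of 3. Averaged over the 37 subunits, log2 CPM was 5.08, 7.77 and 6.65 in the WT mice and 6.04, 7.05, 6.04 and 7.32 in the KO mice under normal conditions. After ischemia it was 5.51, 6.23 and 6.09 in the WT mice and 5.85, 6.94, 6.68 and 7.24 in the KO mice. Every pair of groups overlapped on this average. The share of all counts that fell on members ranged from 0.163% in WT normal replicate 1 to 0.910% in WT normal replicate 2. Between the highest and the lowest mouse, subunits differed by a median of 6.59-fold, from 3.14-fold for Ndufa6 to 12.5-fold for Ndufs8. Assembly factors differed by a median of 3.87-fold, from 2.80-fold for Ndufaf3 to 17.2-fold for Ndufaf6. The last value rests on a low count, since Ndufaf6 had 18 reads in its lowest mouse, WT normal replicate 1. The SD of log2 CPM over the 14 mice had a median of 0.80 over subunits, 0.60 over assembly factors and 0.58 over all genes tested.

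**Figure D1:**
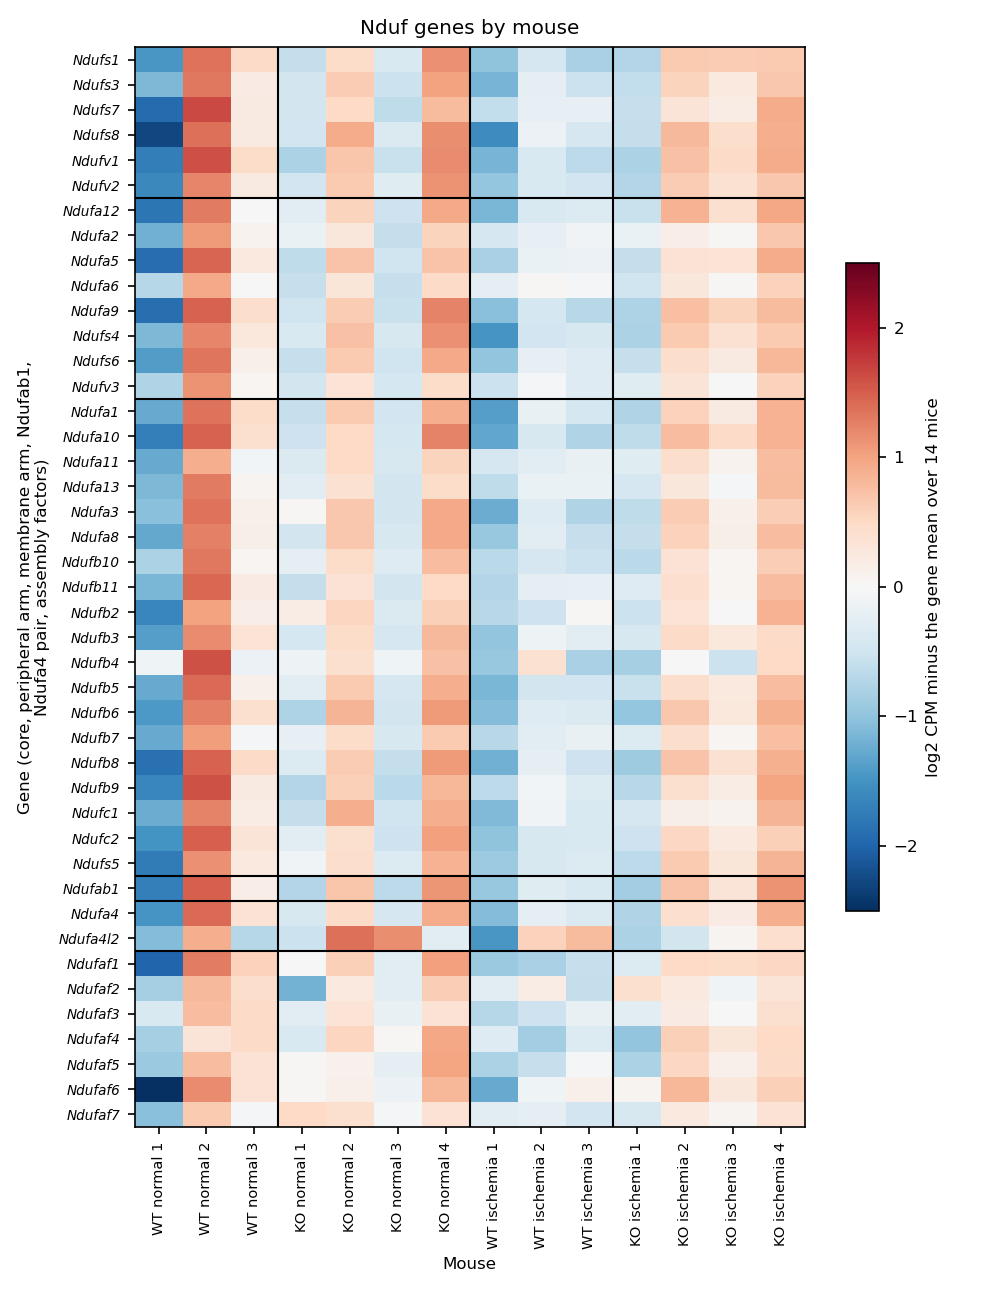
Log2 CPM of 43 tested members (rows, grouped as core, peripheral arm, membrane arm, Ndufab1, the Ndufa4 pair and assembly factors) in the 14 mice (columns), each as the difference from the gene's mean over all mice. WT normal replicate 2 is high and WT normal replicate 1 is low for nearly all rows, and Ndufa4l2 follows another order.

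The core subunits show this pattern in single mice. Ndufv1 was at 58.4, 592 and 268 CPM in WT mice and at 113, 317, 133 and 440 CPM in KO mice under normal conditions, and at 86.4, 149 and 123 CPM in WT mice and 112, 324, 271 and 373 CPM in KO mice after ischemia. Under normal conditions the WT mice spanned the whole range of the KO mice. After ischemia 3 of the 4 KO mice stood above all WT mice and KO ischemia replicate 1 stood among them. Ndufs8, which carries iron-sulfur clusters near the quinone site, was at 17.4, 217 and 97.8 CPM in WT normal, 60.0, 159, 65.3 and 189 in KO normal, 28.3, 75.5 and 63.2 in WT ischemia and 55.7, 148, 113 and 158 in KO ischemia mice. Here too the WT normal mice spanned the range of the KO normal mice, and KO ischemia replicate 1 was the only KO mouse within the range of the WT mice after ischemia. Ndufs1, Ndufs3, Ndufs7 and Ndufv2 likewise had their highest value in WT normal replicate 2 (328, 301, 306 and 351 CPM).

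After ischemia, 43 of the 44 tested members had higher estimates in KO than in WT mice, and Ndufa4l2 was the exception. This was not particular to complex I. Estimates were also higher for 4 of 4 genes of complex II, 9 of 9 of complex III, 10 of 10 of complex IV and 14 of 15 of complex V. The median log2 fold change was 0.84 over the subunits and 0.59 over the assembly factors, beside -0.03 over all 17693 genes, of which 8340 had higher and 9349 lower estimates. No member passed the limits (FDR under 0.05 and fold change over 1.5 in edgeR's quasi-likelihood test), where 0% of all genes did. The smallest FDR of a member was 0.715, and DESeq2 called 0 members as well. At an unadjusted p under 0.05 there were 0 members, beside 6.48% of all genes. DESeq2 had 5 members at that limit, all higher, beside 4.53% of all genes higher in its test. Without WT normal replicate 1, a mouse outside this comparison that enters the shared estimate of spread, 16 members were higher at that limit, beside 6.16% of all genes, and without WT normal replicate 2 there were 9, beside 5.43%. The estimates of all tested members but Ndufa4l2 thus had the same sign, and none was larger than the spread between mice could resolve.

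By role, the 7 core subunits had a median log2 fold change of 0.99 (0.65 to 1.17), the 8 accessory subunits of the peripheral arm 0.73 (0.23 to 1.16) and the 19 of the membrane arm 0.70 (0.21 to 1.25). Ndufa10, an accessory subunit of the membrane arm, had the largest estimate among members, 1.25 ± 0.63 (SE, FDR = 0.715). It was at 83.2, 155 and 122 CPM in WT and at 131, 347, 285 and 374 CPM in KO mice after ischemia. Ndufv1 had 1.17 ± 0.66, Ndufs1 had 1.13 ± 0.57 and Ndufs8 had 1.09 ± 0.68. Ndufab1, the acyl carrier protein of mitochondrial fatty acid synthesis, averaged 60.7 ± 13.6 CPM in the WT group (SD, n = 3) and 122 ± 59.6 CPM in the KO group (SD, n = 4), and its estimate was 1.01 ± 0.66. Ndufb4 and Ndufa6 had the smallest estimates above 0, at 0.21 ± 0.49 and 0.23 ± 0.38.

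All 7 assembly factors had higher estimates in ischemic KO mice, from 0.41 ± 0.41 for Ndufaf2 to 1.08 ± 0.54 for Ndufaf1. Ndufaf1, a scaffold of early assembly of the membrane arm, was at 7.27, 7.86 and 9.31 CPM in WT and at 10.8, 19.5, 19.0 and 19.7 CPM in KO mice. It was the only tested member whose ischemic groups did not overlap, 1 of 44 members beside 4.74% of all genes, with p = 0.0571 in a two-sided exact permutation test (35 splits, smallest possible p 0.0286). Ndufaf3, which acts on the quinone module together with Ndufaf4, was at 9.24, 10.6 and 13.3 CPM in WT and at 12.7, 17.6, 15.3 and 20.01 CPM in KO mice (0.57 ± 0.28). Its groups overlapped by a single KO mouse, and at 0.0623 its unadjusted p was the smallest of all members. Ndufaf4 was at 17.97, 12.2 and 17.8 CPM in WT and at 11.3, 33.8, 27.8 and 31.8 CPM in KO mice (0.71 ± 0.41). Ndufaf5, which modifies Ndufs7, Ndufaf6, an early factor, and Ndufaf7, an arginine methyltransferase, had 0.59 ± 0.43, 0.78 ± 0.64 and 0.43 ± 0.31. In 6 of the 7, KO ischemia replicate 1 was the lowest KO mouse, and the exception was Ndufaf2, at 13.0, 11.7, 9.30 and 12.3 CPM in these mice.

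**Figure D2:**
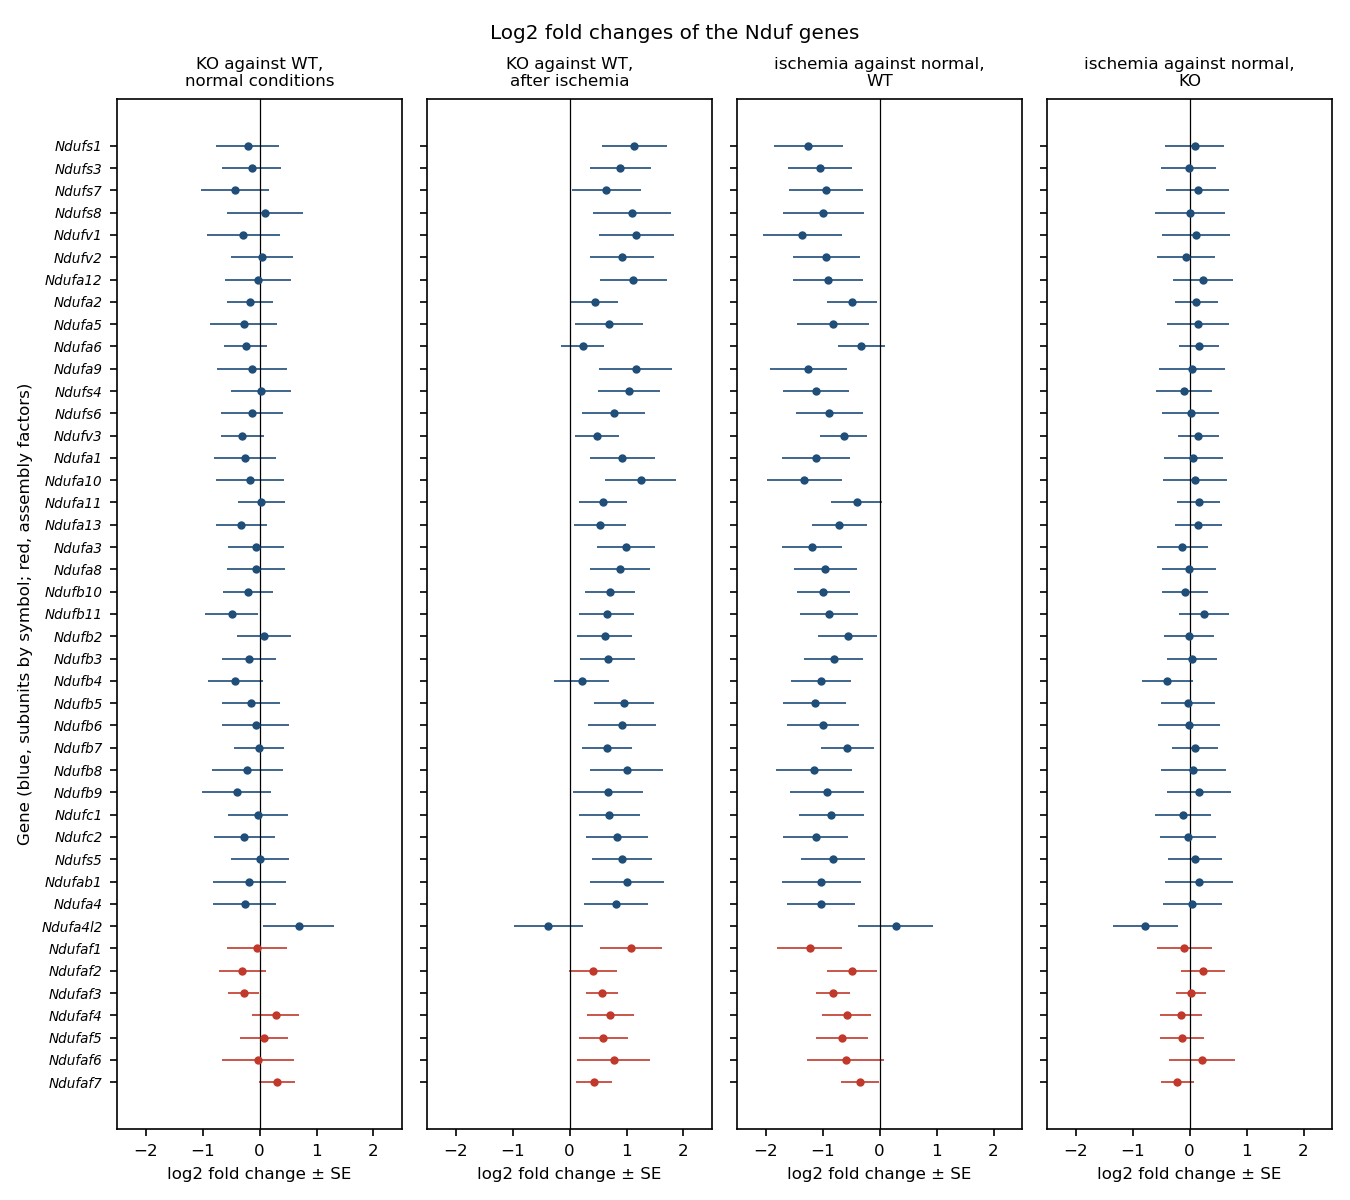
Log2 fold change with SE (horizontal axis) of 43 tested members (rows, subunits in blue and assembly factors in red) in 4 comparisons of edgeR's fit. Estimates lie above 0 between KO and WT after ischemia and below 0 between ischemia and normal conditions in WT for all members shown but Ndufa4l2, which is on the other side in both.

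In WT mice, 43 of the 44 members had lower estimates after ischemia than under normal conditions, again with Ndufa4l2 as the exception. So did 4 of 4 genes of complex II, 9 of 9 of complex III, 10 of 10 of complex IV and 13 of 15 of complex V. This comparison shares its ischemic WT mice with the comparison of genotypes after ischemia. The median log2 fold change was -0.95 over the subunits and -0.59 over the assembly factors, beside -0.01 over all genes, of which 8951 had lower and 8737 higher estimates. None was called, beside 0.0113% of all genes, and the smallest FDR was 0.513. DESeq2 called 0 members. At an unadjusted p under 0.05 there were 2 lower members, Ndufaf3 (-0.82 ± 0.30, FDR = 0.513) and Ndufa3 (-1.18 ± 0.53, FDR = 0.519). Of all genes 5.47% were lower at that limit and 9.57% differed in either direction. DESeq2 had 10 members, all lower, beside 7.86% of all genes lower in its test.

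These values rested on the spread of the WT mice under normal conditions. Ndufaf3 was at 11.7, 25.8 and 21.1 CPM before and 9.24, 10.6 and 13.3 CPM after ischemia, and Ndufa3, a small membrane-arm subunit, at 28.7, 151 and 64.6 CPM before and 25.3, 47.5 and 35.1 CPM after it. The groups overlapped for both (two-sided exact permutation test, p = 0.200 and p = 0.300, smallest possible p 0.10). Without WT normal replicate 2 the subunit median was -0.16 and 0 members had an unadjusted p under 0.05. Without WT normal replicate 1 it was -1.40, 39 members were lower at an unadjusted p under 0.05, beside 11.5% of all genes in that fit, and the smallest FDR was 0.116. By role the medians were -1.05 over the core, -0.85 over the peripheral and -0.95 over the membrane-arm accessory subunits. Ndufv1 had the largest difference, -1.35 ± 0.70, followed by Ndufa10 at -1.32 ± 0.66 and Ndufs1 at -1.25 ± 0.60.

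In KO mice the estimates of the members lay near 0 between ischemia and normal conditions. They were higher for 27 members and lower for 17, with a median of 0.05 over the subunits, -0.09 over the assembly factors and -0.05 over all genes. There were 0 members called and 0 at an unadjusted p under 0.05 in edgeR's and in DESeq2's test. Of all genes 0.294% and 13.2% were so in edgeR's, and 16% had such a p in DESeq2's. Ndufa4l2 had the largest difference, -0.78 ± 0.57 (FDR = 0.605), followed by Ndufb4 at -0.39 ± 0.45 and Ndufb11, a membrane-arm subunit, at 0.25 ± 0.44. The sign of the subunit median turned without KO normal replicate 1 (-0.09), KO normal replicate 3 (-0.12) or KO ischemia replicate 4 (-0.14).

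The ischemia effect was tested for a difference between genotypes. The estimate (KO minus WT) was above 0 for 43 of 44 members, with a median of 1.001 over the subunits and 0.72 over the assembly factors beside -0.02 over all genes. No member was called, as was 0% of all genes, and every member had an FDR of 0.946 or more in edgeR's test. DESeq2 called 0 members. At an unadjusted p under 0.05 there was 1 member in each tool's test, beside 4.32% of all genes in edgeR's and 6.17% in DESeq2's. In edgeR's it was Ndufaf3 (0.85 ± 0.39, FDR = 0.946). Ndufv1 had 1.46 ± 0.91, Ndufa10 had 1.41 ± 0.86, Ndufs1 had 1.34 ± 0.79 and Ndufb11 had 1.14 ± 0.67. Without WT normal replicate 2 the subunit median was 0.23, and without WT normal replicate 1 it was 1.49 with 29 members higher at an unadjusted p under 0.05, beside 6.44% of all genes in that fit. A different course of the Nduf genes in WT and KO mice was therefore not shown at this spread.

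Under normal conditions the differences between genotypes were small and their direction rested on single mice. Estimates were lower in KO than in WT mice for 30 of 37 subunits and higher for 7, with a median of -0.17, and for 4 of 7 assembly factors, with a median of -0.03, beside -0.02 over all genes. There were 0 members called (0% of all genes) and 0 at an unadjusted p under 0.05 (5.25% of all genes). DESeq2 gave 0 for both, with 7.45% of all genes at that p. Ndufa4l2 had the smallest p, at 0.69 ± 0.63 (FDR close to 1), followed by Ndufb11 at -0.49 ± 0.47 and Ndufaf3 at -0.28 ± 0.28. Ndufb11 was at 53.8, 318 and 137 CPM in WT and 78.2, 151, 85.8 and 168 CPM in KO mice, so that a single WT mouse stood above all others. Without that mouse, WT normal replicate 2, the subunit median turned to 0.66, and without WT normal replicate 1 it was -0.57. It also passed 0 without KO normal replicate 1 or 3 (0.03 each).

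**Figure D3:**
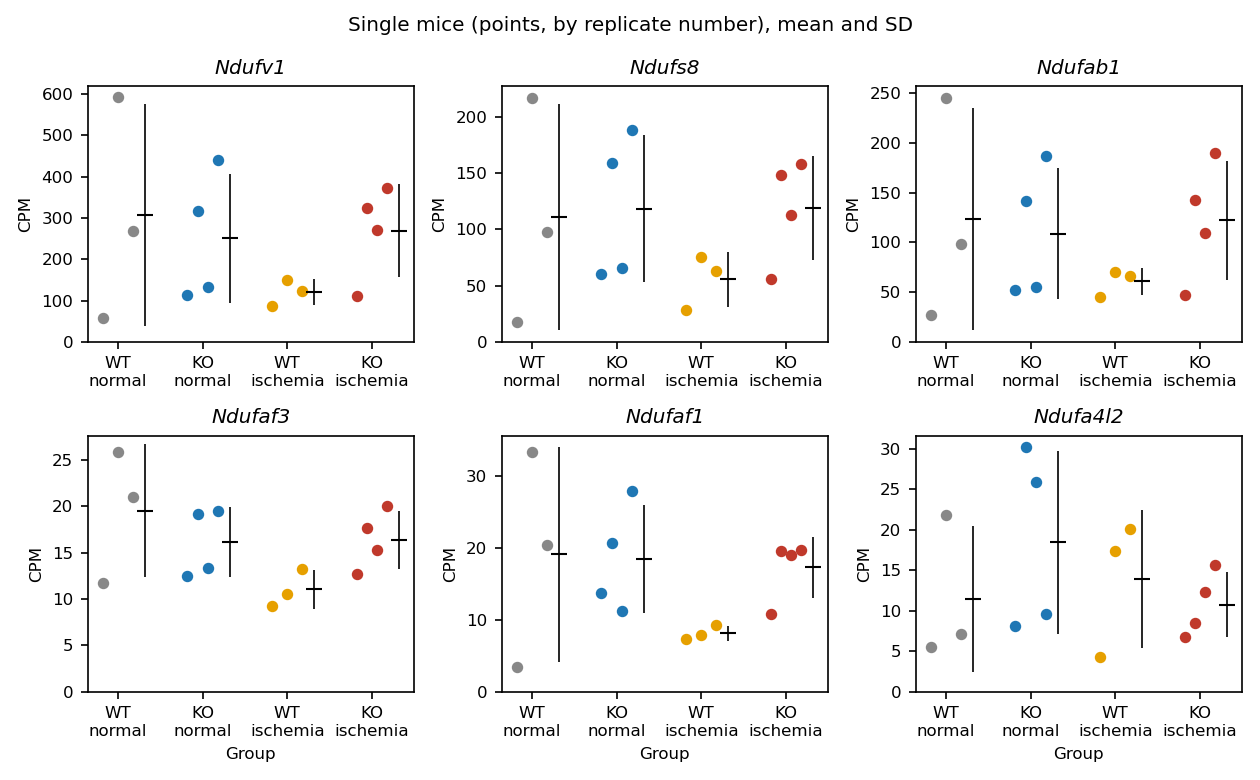
CPM (vertical axis, from 0) of 6 members in single mice of the 4 groups (points, ordered by replicate number), with the mean and SD of each group as a bar beside them. Ndufv1, Ndufs8 and Ndufab1 show the wide spread of the WT normal mice, Ndufaf1 is the member whose ischemic groups do not overlap, and Ndufa4l2 has its highest values in KO normal mice (30.2 and 25.9 CPM).

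Ndufa4l2 was the member that went its own way. It was at 5.52, 21.8 and 7.10 CPM in WT and 8.07, 30.2, 25.9 and 9.57 CPM in KO mice under normal conditions, and at 4.26, 17.4 and 20.1 CPM in WT and 6.72, 8.48, 12.3 and 15.6 CPM in KO mice after ischemia. The groups overlapped, with the narrowest spread in the ischemic KO mice, and no comparison of it reached an unadjusted p under 0.05. Ndufa4, its relative by name, followed the other members, with 76.2, 568 and 272 CPM in WT normal, 160, 295, 159 and 408 in KO normal, 101, 183 and 167 in WT ischemia and 126, 287, 247 and 397 in KO ischemia mice.

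The brown adipocyte markers moved with the members. Their mean log2 CPM over 5 genes (Ucp1, Cidea, Elovl3, Dio2 and Otop1) was 2.79, 9.01 and 6.89 in WT and 6.87, 8.33, 7.32 and 9.17 in KO mice under normal conditions. After ischemia it was 4.13, 6.88 and 5.40 in WT and 6.35, 8.64, 8.52 and 8.51 in KO mice. WT normal replicates 1 and 2 were thus the lowest and next to the highest on this list too. None of the 5 markers was at 0 in any mouse, and the lowest was Elovl3 in WT normal replicate 1 with 1 read. Between KO and WT mice after ischemia all 5 markers had higher estimates, with a median log2 fold change of 2.03, and their summed level was 273 to 1437 CPM in WT and 982 to 4816 CPM in KO mice. Ucp1 was at 66.3, 776 and 304 CPM in those WT and at 604, 3272, 2640 and 2921 CPM in those KO mice (2.63 ± 1.21, FDR = 0.715).

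**Figure D4:**
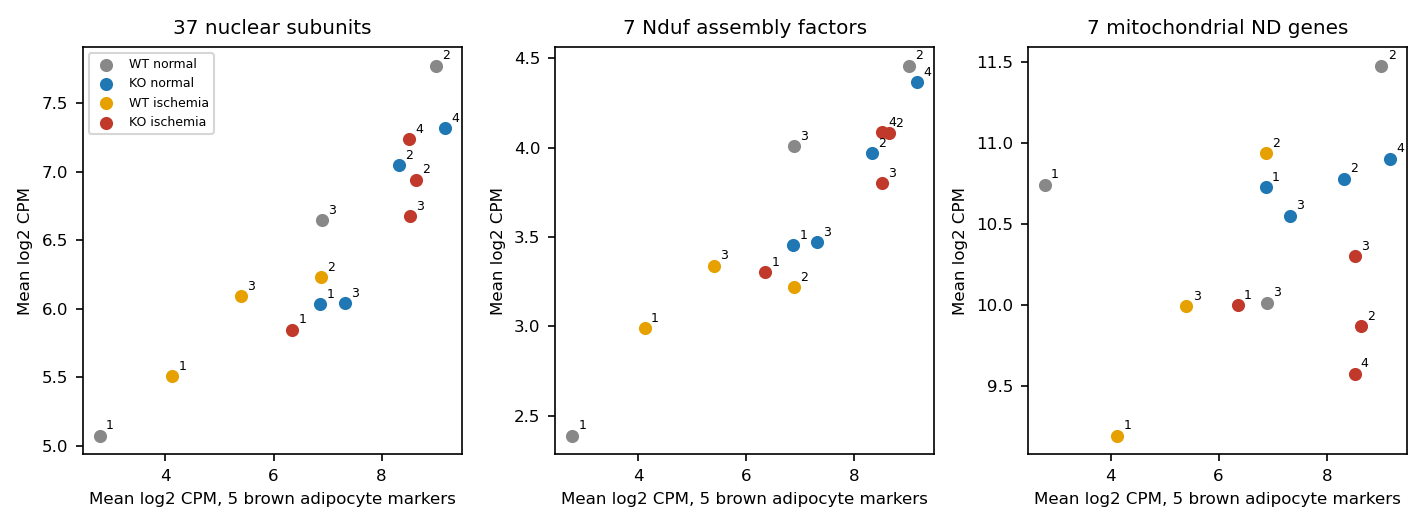
Mean log2 CPM of the 37 subunits, the 7 assembly factors and the 7 mitochondrially encoded ND genes (vertical axes) against the mean log2 CPM of 5 brown adipocyte markers (horizontal axes) in the 14 mice, coloured by group and numbered by replicate. Subunits and assembly factors climb with the marker level from WT normal replicate 1 at 2.79 upward, and the ND genes do not line up with it.

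When this marker level was added to the 4 groups as a covariate, its coefficient, the slope of a gene's log2 level per log2 unit of marker level, was above 0 at an FDR under 0.05 for 43 of 44 members, all 7 assembly factors among them, beside 13.8% of all genes rising and 9.2% falling. This test was chosen after the data had been seen. The median slope was 0.45 over the subunits, 0.25 over the assembly factors and 0.00 over all genes. Ndufs8 had the steepest, 0.60 ± 0.05, and Ndufaf3 the shallowest, 0.19 ± 0.04. Ndufa4l2 did not pass (0.32 ± 0.12, FDR = 0.0768). The other respiratory complexes rose as well, with all 4 genes of complex II, all 9 of complex III, all 10 of complex IV and 12 of 15 of complex V. Of 7 smooth muscle markers 0 rose and 3 fell, and of 6 striated muscle markers 0 passed. Markers of adipocytes in general rose for 4 of 5 genes (median slope 0.56), and those of endothelium for 3 of 5 (median slope 0.25).

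With the marker level held fixed, the estimates of KO against WT mice after ischemia turned. All 37 subunits, Ndufa4l2 included, and 6 of 7 assembly factors were then lower in KO mice, with medians of -0.37 and -0.17. The marker level was 4.13 to 6.88 in the ischemic WT and 6.35 to 8.64 in the ischemic KO mice. These groups shared little of its range, so the turned estimates rest on a slope shared by all groups. Ndufs1 went from 1.13 to -0.19 ± 0.24, Ndufs8 from 1.09 to -0.44 ± 0.23 and Ndufaf1 from 1.08 to -0.17 ± 0.31. None was called (smallest FDR 0.679), and 4 of 44 were lower at an unadjusted p under 0.05, beside 4.6% of all genes in the same fit. In WT mice the subunit median between ischemia and normal conditions was -0.23, and the median difference of the ischemia effect between genotypes was 0.26. Under normal conditions the subunit median between KO and WT mice was -0.66, and 30 subunits and 1 assembly factor had an unadjusted p under 0.05, all lower in KO mice, beside 6.02% of all genes lower at that limit in the same fit, with a smallest FDR of 0.222 for Ndufb11 (-0.86 ± 0.21). Brown adipocyte cells and brown-type transcription within other cells cannot be told apart in bulk tissue, and their part in these differences was not tested beyond these values.

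**Figure D5:**
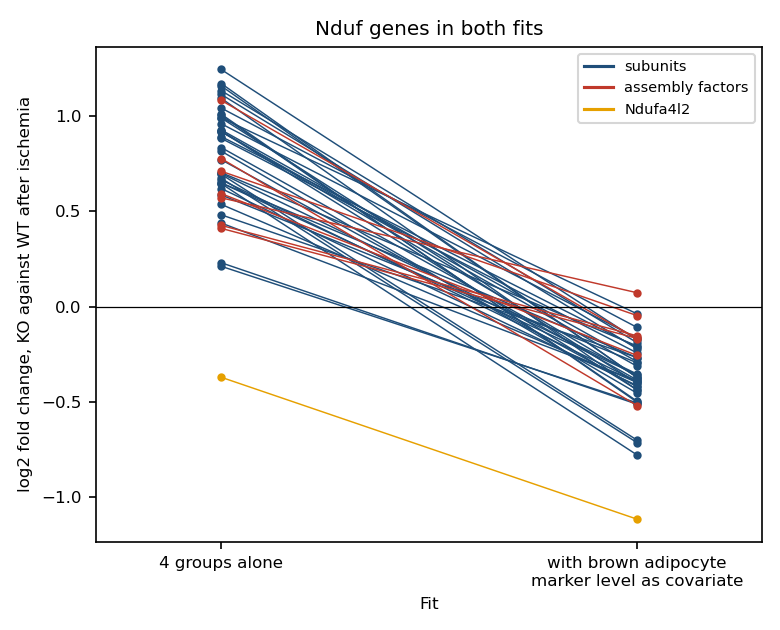
Log2 fold change of KO against WT mice after ischemia (vertical axis) for each tested member in the fit of the 4 groups alone (left) and with the brown adipocyte marker level as covariate (right), with 1 line per gene. The subunit median goes from 0.84 to -0.37, and Ndufa4l2 lies below 0 in both.

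Other genes of complex I were set beside the members. Of 10 further assembly factors tested (Acad9, Ecsit, Tmem126b, Timmdc1, Foxred1, Nubpl, Tmem186, Tmem70 and the rows Tmem261 and Atp5sl, which RefSeq names Dmac1 and Dmac2), all 10 had higher estimates in KO than in WT mice after ischemia, with a median of 0.64. Tmem70, which also serves assembly of ATP synthase, was at 23.3, 23.7 and 23.9 CPM in WT and 30.7, 50.7, 47.3 and 49.2 CPM in KO mice, without overlap (0.91 ± 0.36, FDR = 0.715). Atp5sl was at 18.9, 22.1 and 20.8 CPM in WT and 31.2, 40.7, 33.2 and 41.4 CPM in KO mice, also without overlap (0.83 ± 0.28, FDR = 0.715). With Tmem186 (9.46 to 11.8 CPM in WT and 12.4 to 18.1 CPM in KO mice), 3 of the 10 did not overlap, beside 4.74% of all genes. In WT mice all 10 had lower estimates after ischemia, with a median of -0.97. In KO mice 9 of the 10 had lower estimates after ischemia, with a median of -0.18, where the members were divided. None of the 10 was called in any comparison. On the marker level 8 of the 10 rose.

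The 7 mitochondrially encoded ND genes took another course. Between KO and WT mice after ischemia 6 of 7 had lower estimates, with a median of -0.29, where 43 of 44 members had higher ones. After ischemia all 7 were lower in WT mice (median -0.59) and in KO mice (median -0.73), and in KO mice none of the 7 overlapped between conditions, beside 5.6% of all genes. ND5, a proton channel subunit, was at 9708, 9546, 8958 and 10161 CPM in KO mice before and 7583, 5174, 7618 and 3914 CPM after ischemia. ND3 was at 23.8, 28.4, 26.2 and 36.3 CPM before and 10.5, 15.4, 17.3 and 17.2 CPM after it (-0.92 ± 0.38, FDR = 0.310). None was called. On the brown marker level 1 of 7 ND genes rose and the median slope was 0.12. Estimates of nuclear and mitochondrial genes of the same enzyme thus differed in sign between genotypes after ischemia, a difference that was not tested. With the marker level as a covariate both were lower in KO mice, with a median of -0.50 over the 7 ND genes and -0.37 over the subunits.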

How the data were processed

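The authors deposited 1 table of raw read counts per gene symbol and mouse, whole numbers without normalization and without pooling. The submitters' processing notes name HISAT2 2.0.4 and mm10, and the counting program, annotation and use of strand are not given in the sources used here. There were 0 value columns left unused. Groups and replicate numbers came from the sample labels, and each library was a separate mouse. They were fitted with edgeR 4.0.16 under R 4.3.3 (filterByExpr by the 4 groups, TMM, 1 quasi-likelihood fit of 14 mice, Benjamini-Hochberg adjustment over 17693 genes). A call needed FDR under 0.05 and over 1.5-fold. Levels are TMM-scaled CPM, and log2 CPM used a prior count of 2. SE is the log2 fold change divided by the square root of F. Single genes were compared with a two-sided exact permutation test of mean log2 CPM. DESeq2 1.42.0, other scalings, filters, covariates and left-out mice were alternatives. Total counts were 25612646 to 40255851, and 3 counts correspond to 0.0745 to 0.117 CPM, for counting error only. Members and gene lists were chosen with earlier results of these data known. Genes named with values were the core subunits (1 member counted in the totals is not reported here by name), the assembly factors, Ndufab1, Ndufa4, Ndufa4l2, the 3 members with the smallest p of each comparison and the members with the highest and lowest level. Ndufa6, Ndufb2, Ndufb8, the genes with promoter matches and the genes named outside the family were chosen after their values were seen. Steps were run on simulated data. For the slope these had a smaller spread than the fit of the 4 groups here, so they do not show its error rate at that spread.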

Additional observations from a re-analysis of the deposited data

Results flagged for a closer look

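Dixon's test of the highest or lowest mouse was applied to 62 sets of 4 mice, and its critical value was exceeded in 2. Chance exceeds it in about 1 set in 20. The sets reuse the same mice and the members moved together across mice. This rate therefore cannot say whether 2 of 62 is more than chance would give. In both of these 2 sets it was KO ischemia replicate 1, which lay below the other 3 KO mice after ischemia. Ndufs1 was at 76.2 CPM in this mouse and at 198 to 202 CPM in the others. Ndufaf1 was at 10.8 CPM in it and at 19.0 to 19.7 CPM in the others. The same mouse had the lowest brown adipocyte marker level of the KO mice after ischemia, with a mean log2 CPM of 6.35 against 8.51 to 8.64. Whether that level accounts for the low values was not tested.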

How the results depend on the processing

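No member was called under any of the alternatives run, which covered DESeq2, other scalings and filters, an FDR limit alone, the groups compared alone, a replicate block, covariates and each mouse left out. Leaving out each mouse in turn moved the subunit median of KO against WT under normal conditions between -0.57 and 0.66, and 0.66 was the value without WT normal replicate 2. After ischemia it stayed between 0.65 and 1.05, and the assembly factor median between 0.46 and 0.81. With the brown adipocyte marker level as a covariate these medians were -0.37 and -0.17, and -0.34 and -0.15 with Ucp1 left out of the level. The assembly factor median of the difference between genotypes in the ischemia effect, 0.72, was 0.079 with the covariate and 0.097 with Ucp1 left out. The cause of these shifts was not tested. An alternative added after seeing the data left out the 3 libraries with the highest mean of striated muscle markers. The subunit median between KO and WT mice after ischemia was then 0.62. With the groups compared fitted alone, 27 members were higher at an unadjusted p under 0.05 in KO than in WT mice after ischemia, against 0, beside 8.28% of all genes in that fit.

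The replicate number was not taken to pair the mice, since same-numbered libraries came from different mice. Same-numbered mice were nonetheless more alike, and what they may share was not tested. Correlations were taken over all tested genes on log2 CPM less each gene's group mean. Such deviations cancel out within a group, so the medians of both kinds of pair are not independent. Same-numbered mice of different groups had a median of 0.12 over 19 pairs, 11 of them over 0.1. Differently numbered ones had a median of -0.04 over 54 pairs, 9 of them over 0.1. With the number as a replicate block the subunit median between KO and WT mice after ischemia was 0.51, 6 members were higher at an unadjusted p under 0.05 (3.04% of all genes), and 12 were lower for the ischemia effect in WT (5.88% of all genes), against 2. With the block and the covariate together, 16 members rose with the marker level (2.34% of all genes), against 43. Lane 1 held only WT normal replicate 3, so lane and mouse cannot be told apart. Precision was limited by the spread between mice and not by depth.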
